A study of Mus musculus with 2 samples.

Results

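The peroxisome proliferator-activated receptors (PPARs) and a set of genes known as their targets in lipid handling were followed in mouse keratinocytes. The set holds the receptors Ppara, Ppard and Pparg, the fatty acid binding proteins Fabp4 and Fabp5, the lipase gene Lpl and its inhibitor gene Angptl4, the lipid droplet genes Adfp (now Plin2) and Cidea, and the oxidation gene Cpt1a. Members were all gene probes that carry one of these names on both arrays, which gave 14 probes for 10 genes, of 41174 gene probes in all. All 14 passed the filter on dim signals and were among the 23519 probes tested. RNA of keratinocytes deleted for Chuk, labelled CHUK-LoxP mutant and dyed with Cy5, was hybridised together with RNA of wild-type keratinocytes, dyed with Cy3, on each of 2 arrays. Chuk encodes IKKα, a kinase needed for keratinocytes to mature, and loxP marks the sites where Cre recombinase cuts. The labels give no age, strain, Cre driver, agent or number of animals, and do not say whether the cells were cultured. Wild type was in Cy3 each time and no swap is named, so dye and genotype cannot be told apart for any probe. The p-values rest on how far the 2 arrays differ, for the probe itself and pooled over all probes tested. They measure nothing more, and that spread may be technical. In bulk RNA, fewer cells of a type and less RNA per cell cannot be told apart.

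PPARs are nuclear receptors that bind fatty acids and their derivatives and pair with retinoid X receptors (RXRs) on DNA. PPARα drives fatty acid oxidation in liver, PPARγ directs the formation of fat cells and sebocytes, and PPARδ is the main form in keratinocytes, where it has been tied to differentiation and wound repair. In the epidermis, lipids taken up or made by keratinocytes are stored, modified and secreted to form the skin barrier.

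The PPAR and RXR pair binds a direct repeat of AGGTCA with 1 base between the copies. Windows of 250 bases before annotated starts, from RefSeq on GRCm38.p6, were taken by symbol and searched for 5 of the genes. These were 7 windows for Ppara, Ppard, Pparg, Plin2 and Cpt1a. The full repeat AGGTCANAGGTCA, sought on both strands, was in none of these 7 windows and in 0.0335% of all 32851 windows. A single AGGTCA on either strand, which lies within the full repeat, was in 4 of the 7 windows, against 14.0% of all windows. These 4 places are shown because they are where the letters of the receptor's half-site stand in the member windows searched. Each line holds 30 bases on the strand of the gene, with the half-site in capitals, read as TGACCT where it lies on the opposite strand.
Cpt1a, chr19:3323195-3323224, plus strand, 94 bases before an annotated start within the gene: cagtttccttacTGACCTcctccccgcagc
Plin2, chr4:86670260-86670289, minus strand, 218 bases before an annotated start: tttcaggaccccTGACCTaagtcagacagc
Pparg, chr6:115361104-115361133, plus strand, 28 bases before a start: agccgccgcctcAGGTCAgagtcgccccgg
Pparg, chr6:115362319-115362348, plus strand, 9 bases before another start: ttttatataagggacgcgaggAGGTCAaga
With loess centring the 3 genes with a half-site lay at mean log2 ratios between -0.27 and -0.16, and the windows of Ppara and Ppard held none. With median centring Plin2 and the brighter Cpt1a probe turned above 0, while the other Cpt1a probe lay at -0.21. Cidea, the member with the largest difference, was left out of the search, so the window counts do not cover it. No window was found by symbol for Fabp4, Fabp5, Lpl and Angptl4. Any link between half-sites and ratios was not tested. A match of 6 letters is a description and shows no binding.

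Across the set, Cidea, Angptl4 and Fabp5 had less signal in the Chuk-deleted channel and Lpl had more. The receptor probes lay near background and moved little with loess. With the scanner software's processed signals their log2 ratios were 0.71 for Ppara, -0.56 for Pparg and 0.36 for Ppard. Cidea was 9.12-fold lower, Angptl4 2.50-fold lower and Fabp5 1.83-fold lower, while Lpl was 1.49-fold higher. All values are log2 ratios of Chuk-deleted over wild type after normalisation within each array, with the mean and SD over the 2 arrays (n = 2). A gene is said to have risen or fallen where its ratio passed limma's moderated test with Benjamini-Hochberg adjustment over all probes. By that rule 3 of the 10 genes rose (Lpl, Ppara and Fabp4), 6 fell (Cidea, Angptl4, Fabp5, Cpt1a, Pparg and Adfp) and Ppard did not pass. Of all 13739 genes tested, 33.0% rose and 28.3% fell, so the share of members that rose (30%) lay near the general one and the share that fell (60%) lay above it, with no test of the difference for a set of chosen genes. With the channel labels exchanged, 60% would have risen and 30% fallen, against 28.3% and 33.0% of all genes. Among probes, 5 of 14 rose and 7 fell, against 33.5% and 27.9% of all probes tested. At least 2-fold apart on both arrays, 2 members were lower (Cidea and Angptl4) and 0 higher, against 3.21% and 1.50% of all genes. By the scanner software's own p-value, under 0.01 on both arrays, 3 were lower (Cidea, Angptl4 and Fabp5) and 0 higher, against 9.21% and 9.05% of genes.

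**Figure D1:**
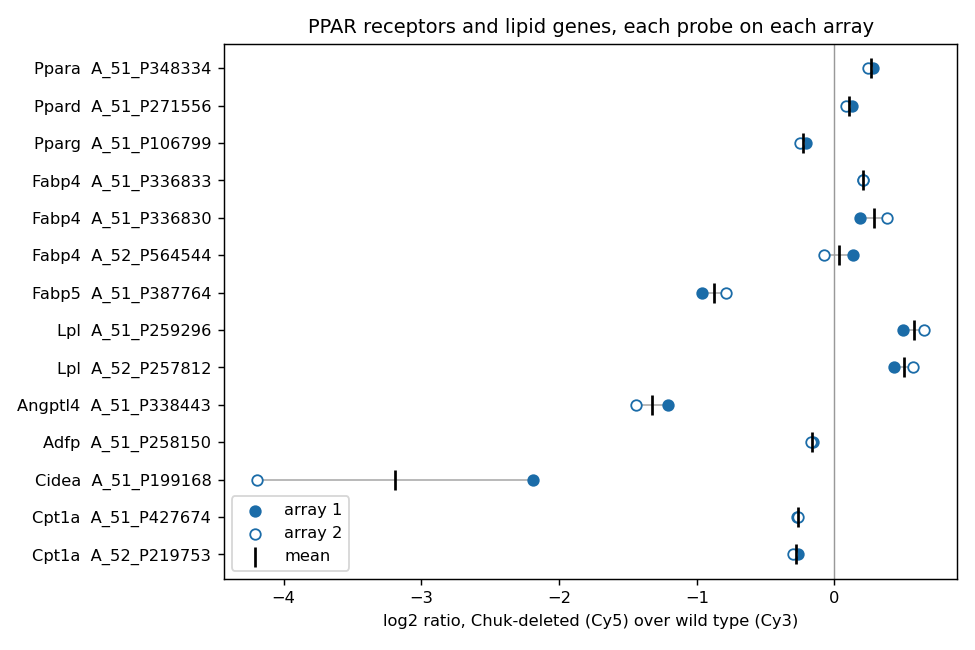
Log2 ratio of Chuk-deleted (Cy5) over wild type (Cy3) for each of the 14 probes, one point for each array (filled, array 1; open, array 2) and a bar for their mean. Cidea lies at -2.19 and -4.19, Angptl4 at -1.21 and -1.44 and Fabp5 at -0.96 and -0.79, while most other probes lie within 0.6 of 0.

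Directions rest on the labels of the channels and on how each array is centred. Both probes of Chuk itself gave more signal in the channel labelled Chuk-deleted, with log2 ratios of 0.73 and 0.75 for one probe and 0.93 and 0.78 for the other, which goes against the label. Where the deletion lies and where the probes sit is not given in the sources used here, and a probe beyond the deleted stretch checks nothing. Median spot signals were 218 and 171.5 in Cy5 and 109.9 and 95.2 in Cy3, and the ratios of the arrays correlated at Pearson's r = 0.960 and Spearman's rho = 0.948 across genes, which are not independent replicates. The median of all tested probes was 0.02 with loess, 0.47 with median centring and -0.74 when the mean ratio of the spike-in controls, RNAs added during labelling, was subtracted. Members are therefore also given relative to that median. On this footing Cidea, Angptl4, Fabp5, Pparg and Cpt1a lay below the median probe in the loess, software and median settings alike. Lpl lay above it in all of these. Ppara, Ppard and Adfp changed sides with median centring, and of the 3 Fabp4 probes the dim one did. The receptor probes, the dim Fabp4 and Cpt1a probes and Fabp5 all lay lower relative to the median with median centring than with loess. The other, brighter member probes all lay higher. The spike-in setting subtracts a constant per array from the loess ratios. Its positions relative to the median therefore repeat those of loess by construction.

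Of the receptors, Ppara rose and Pparg fell by small amounts with loess, and Ppard did not pass the test. Ppara, whose product drives fatty acid oxidation, had mean processed intensities of 76.0 and 67.8 in the Chuk-deleted channel, against 50.4 and 40.2 in the wild-type channel. Both Chuk-deleted values lay above both wild-type values. The loess log2 ratios were 0.28 and 0.24 (mean 0.26 ± 0.03, 1.20-fold, adjusted p = 0.00529, limma). Its probe is printed 10 times on each array, and 10 of 10 spots had a ratio above 0 on either array, with a spot SD of 0.15 on array 1 and 0.08 on array 2. Repeat spots share 1 hybridisation and show only measurement error. The wild-type signal was well above background in 10 of the 10 spots on array 1 and in 2 of the 10 on array 2. The software's processed signals, which subtract the background outright, gave a larger mean of 0.71 (adjusted p = 0.0103, limma), and relative to the median probe Ppara lay at 0.24 with loess and at -0.13 with median centring.

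Pparg, whose product directs fat cell and sebocyte formation, had mean processed intensities of 46.6 and 55.2 in the Chuk-deleted channel, against 68.7 and 81.4 in the wild-type channel. The channels did not overlap between arrays. Its log2 ratios were -0.21 and -0.25 (mean -0.23 ± 0.03, 1.17-fold lower, adjusted p = 0.00935, limma), and 10 of 10 repeat spots lay below 0 on both arrays, with spot SDs of 0.07 and 0.08. The processed signals gave -0.56 (adjusted p = 0.00999, limma). With median centring the value was -0.16 and did not pass (adjusted p = 0.182, limma). The probe then lay 0.63 below the median probe, as compared with 0.25 below it with loess. The other receptor probes moved down alike, Ppara from 0.24 to -0.13 and Ppard from 0.08 to -0.45, so the larger distance adds no separate support. Ppard, the main keratinocyte form, had 38.7 and 58.5 in the Chuk-deleted channel, against 33.7 and 40.5 in the wild-type channel. These channel values overlapped, and the wild-type signal was well above background on array 1 alone. Log2 ratios were 0.13 and 0.08 (mean 0.10 ± 0.03, adjusted p = 0.126, limma), and the processed signals gave 0.36 without passing (adjusted p = 0.0640, limma). All 3 receptor probes thus lay further from 0 with the processed signals than with normexp and loess.

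**Figure D2:**
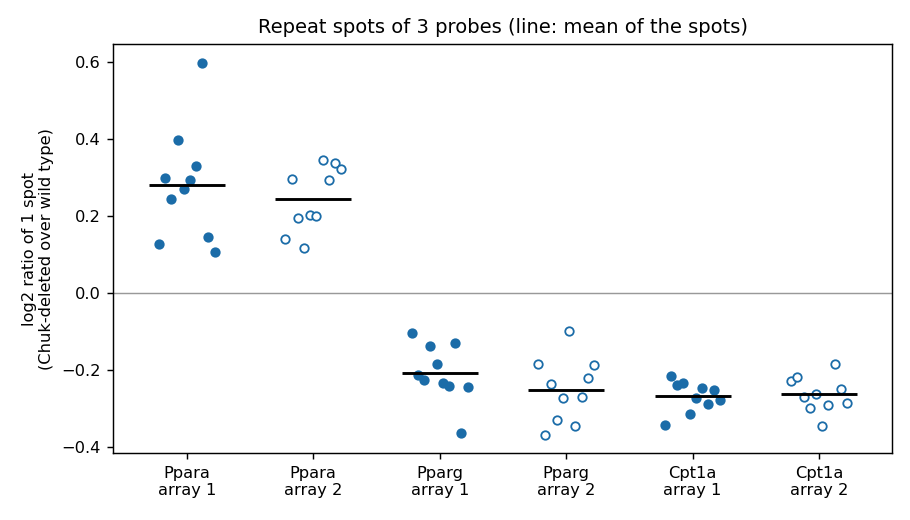
Log2 ratio of each of the 10 repeat spots of the probes for Ppara, Pparg and Cpt1a (filled, array 1; open, array 2), with a line at the mean of the spots. Every Ppara spot lies above 0, and every Pparg and Cpt1a spot lies below 0, on both arrays.

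Partners of the receptors went both ways with loess. Of 14 tested genes on a list of RXRs, coactivators and corepressors, 5 rose and 5 fell, with a median log2 ratio of 0.01 against 0.02 for all genes. With median centring 12 were higher and 0 lower, where 16402 of all 23519 tested probes were higher and 1581 lower. With the spike-in mean 1 was higher and 12 lower, where 462 of all tested probes were higher and 21188 lower. Ppargc1b, a coactivator of PPARs and of mitochondrial genes, rose by 1.25 ± 0.11 on the log2 scale, and it was the single gene of the 6 pathway lists at least 2-fold higher on both arrays. Rxrg, one of the RXRs, rose by 0.23 ± 0.02. The coactivators Ncoa3 (-0.47 ± 0.05) and Ep300 (-0.44 ± 0.06) fell. Nrip1, a corepressor of metabolic genes, fell by 0.34 ± 0.02 on its brightest probe, while its probes were called in opposite directions. Rxra, the main RXR of the epidermis, lay at -0.09 ± 0.08 and Rxrb at 0.02 ± 0.10, and neither passed. Ppargc1a was not above background often enough to be tested.

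The fatty acid binding proteins diverged: Fabp5 fell and Fabp4 rose slightly. Fabp5, the form known from epidermis and a carrier that hands fatty acids to PPARδ, had processed intensities of 90.1 and 66.1 in the Chuk-deleted channel, against 247 and 184 in the wild-type channel. Both Chuk-deleted values were lower than both wild-type values, and both channels were flagged well above background on both arrays. The Chuk-deleted signal was low all the same. Before background subtraction it was 256 and 169, against local backgrounds of 70 and 68.5. The log2 ratios were -0.96 and -0.79 (mean -0.87 ± 0.12, 1.83-fold lower, adjusted p = 0.000106, limma). Among all tested probes 3.62% had a lower ratio. The processed signals gave a steeper value of -1.47 (adjusted p = 0.00728, limma). The probe is named from its symbol, and RefSeq holds 2 entries named after this gene, the other a pseudogene, Fabp5l2, whose share in the signal was not tested.

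Fabp4, the fat cell form and a PPARγ target, was read by 3 probes. The brightest had 6252 and 5674 in the Chuk-deleted channel, against 5372 and 4837 in the wild-type channel, with log2 ratios of 0.20 and 0.21 (mean 0.21, SD 0.001, adjusted p = 0.0138, limma). The second gave 0.19 and 0.38 (mean 0.28 ± 0.14, adjusted p = 0.00969). The third, at 131 and 94.2 in the Chuk-deleted channel against 122 and 94.6 in the wild-type channel, gave 0.13 and -0.07 and did not pass (adjusted p = 0.719). The brighter probes were thus slightly higher, and on the dim one the arrays lay on opposite sides of 0. With the processed signals the brightest probe no longer passed (0.22, adjusted p = 0.0534). Fabp4 and Fabp5 belong to one cluster on chromosome 3, in the order Fabp5, Pmp2, Fabp9, Fabp4 and Fabp12 among protein-coding genes. Of the genes beside them, Fabp12 lay at 0.01 ± 0.13 and did not pass, and Pmp2 and Fabp9 were too dim to be tested.

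Other small lipid and retinoid carriers split evenly, with 3 of 8 tested genes higher and 3 lower (median 0.07). Crabp2, which carries retinoic acid to its receptor, fell by 1.27 ± 0.12, with its Chuk-deleted signal well above background on 1 of 2 arrays. Fabp2, the intestinal form, fell by 0.60 ± 0.12. Fabp7, the brain form, rose by 0.73 ± 0.05 and Crabp1 by 0.29 ± 0.08. Rbp7, a retinol carrier, was at least 1.26-fold higher in the Chuk-deleted channel, since neither array had its wild-type signal well above background (adjusted p = 0.00239, limma); relative to the median gene it lay at 0.31 with loess and at -0.26 with median centring.

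**Figure D3:**
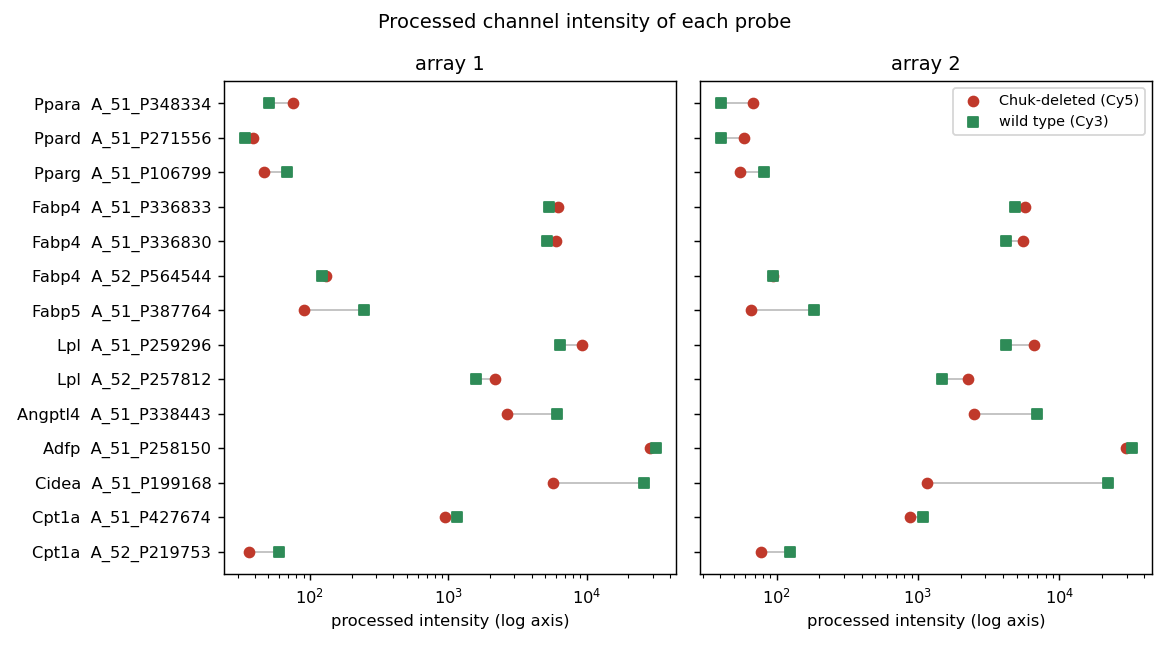
Processed intensity (background subtracted and dye normalised by the scanner software) of each probe on a log axis, with the Chuk-deleted channel as circles and the wild-type channel as squares, 1 panel for each array. The gap between channels is widest for Cidea, and probes are not comparable with each other in level.

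Lpl rose while Angptl4, which encodes an inhibitor of the enzyme, fell. Lipoprotein lipase frees fatty acids from circulating lipoproteins. Its brighter probe had processed intensities of 9250 and 6631 in the Chuk-deleted channel, against 6390 and 4177 in the wild-type channel. On each array the Chuk-deleted value was the higher one. The log2 ratios were 0.50 and 0.65 (mean 0.58 ± 0.11, 1.49-fold, adjusted p = 0.000390, limma), and 91.8% of tested probes had a lower ratio. The second probe gave 0.43 and 0.57 (mean 0.50 ± 0.10, 1.42-fold, adjusted p = 0.000617), so the probes differed by less than the spread between arrays. After lowering by the spike-in mean they lay at -0.19 and -0.26, against a median probe of -0.74.

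Angptl4, a secreted protein that PPARs and fasting induce, had 2652 and 2494 in the Chuk-deleted channel, against 6093 and 6931 in the wild-type channel. The channels stood well apart on both arrays. Its log2 ratios were -1.21 and -1.44 (mean -1.32 ± 0.17, 2.50-fold lower, adjusted p = 4.82e-05, limma), and 1.76% of tested probes lay lower. The software's p-value for the ratio was 2.23e-07 on array 1 and 1.72e-09 on array 2. Under the other corrections, centrings and filters the mean of both arrays ranged between -2.09 and -0.67 and passed limma's test in each. The filters and the kept outliers left the mean unchanged, and the spike-in setting lowered all probes alike, so these add no separate support.

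The list around the lipase had 3 of 9 tested genes higher and 3 lower (median 0.06). Pcsk6 and Furin, convertases that cleave lipases and angiopoietin-like proteins, lay at -1.71 ± 0.78 and -0.25 ± 0.02, and both fell. Lipg, the endothelial lipase that acts on high-density lipoproteins, fell by 1.10 ± 0.10. Lmf1 and Lmf2, of which Lmf1 is a chaperone that lets lipases fold, rose by 0.43 ± 0.06 and 0.24 ± 0.06, and Angptl6 by 0.56 ± 0.01. Gpihbp1, which carries the lipase to the capillary wall, lay at 0.06 ± 0.03 and did not pass.

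Of the lipid droplet genes, Cidea had the largest difference of any member, with less signal in the Chuk-deleted channel, and Adfp fell slightly; with the labels exchanged both would be higher. CIDEA sits on lipid droplets and promotes their fusion, and in mice it is known from brown fat and from sebaceous glands. Its processed intensities were 5727 and 1150 in the Chuk-deleted channel, against 25825 and 22114 in the wild-type channel. The wild-type values were close to each other, and the Chuk-deleted ones differed widely between arrays. The log2 ratios were therefore unequal, -2.19 and -4.19 (mean -3.19 ± 1.42, 9.12-fold lower, adjusted p = 0.000901, limma), and 0.200% of tested probes had a lower mean ratio. The software's p-values were 3.01e-14 and 2.87e-21. Under the other corrections, centrings and filters the mean of both arrays lay between -3.95 and -2.48 and passed each time. The filters and the kept outliers left the mean unchanged, so they add no separate support. With the spike-in mean 21188 of the 23519 tested probes were called lower, so passing there says little.

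Adfp, or Plin2, encodes the perilipin that coats lipid droplets in most cells and is a PPAR target. It had 28894 and 29420 in the Chuk-deleted channel, against 31607 and 32638 in the wild-type channel. The Chuk-deleted values were lower by a small margin on both arrays. Log2 ratios of -0.16 and -0.17 (mean -0.16 ± 0.01, 1.12-fold lower) passed narrowly (adjusted p = 0.0327, limma). The call was lost with the processed signals (-0.14, adjusted p = 0.142) and with no filter on dim probes (adjusted p = 0.0529), and median centring turned the direction (0.64, which lay 0.17 above the median probe).

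**Figure D4:**
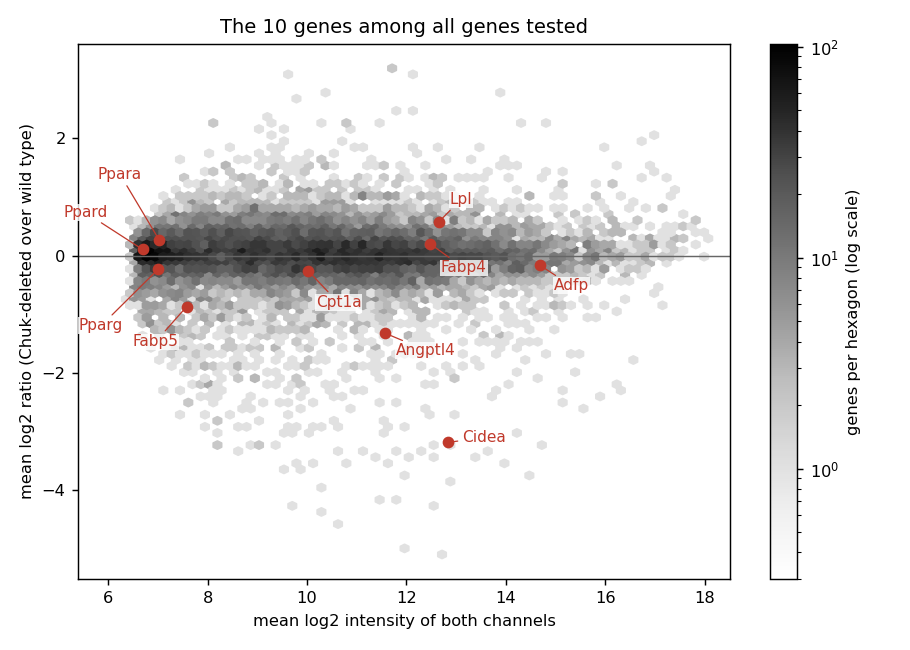
Mean log2 ratio against mean log2 intensity of both channels for all 13739 genes tested (hexagons shaded by number of genes), with the 10 genes as points. Cidea, at -3.19, and Angptl4, at -1.32, lie below the bulk of genes, Lpl, at 0.58, lies in its upper part, and the receptors lie at the dim end.

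Among other genes of droplet making and breakdown, 9 fell and 4 rose of 16 tested, and their median log2 ratio was -0.36. Dgat2, which makes the last step of triglyceride synthesis, fell by 1.56 ± 0.11, while Dgat1, the other enzyme of that step, rose by 0.23 ± 0.04. Pnpla3, a lipase of lipid droplets, fell by 1.46 ± 0.12. Of the phosphatidate phosphatases, Lpin2 fell by 0.87 ± 0.07 and Lpin1 rose by 0.60 ± 0.06. G0s2, an inhibitor of the main triglyceride lipase, rose by 0.78 ± 0.11. The relatives of Cidea and Adfp that mark fat cells (Cidec, Plin1, Plin4) were not tested for lack of signal. With median centring 9 droplet genes were higher and 2 lower, and the list's median then lay 0.27 below that of all genes, as compared with 0.38 below it with loess.

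Cpt1a, the enzyme that lets long-chain fatty acids into mitochondria and a target of PPARα, fell by a small and even amount. The probe printed 10 times had mean processed intensities of 951 and 876 in the Chuk-deleted channel, against 1166 and 1082 in the wild-type channel. The channels did not overlap. Log2 ratios were -0.27 and -0.26 (mean -0.27, SD 0.003, 1.20-fold lower, adjusted p = 0.00482, limma), and 10 of 10 spots lay below 0 on both arrays, with spot SDs of 0.04 and 0.05. The second probe gave -0.27 and -0.30 (adjusted p = 0.00393). It had 36.4 and 77.7 in the Chuk-deleted channel, against 59.4 and 124 in the wild-type channel, and the processed signals gave it -0.69. With median centring the first probe turned to 0.31, still 0.16 below the median probe, and the second lay at -0.21 (adjusted p = 0.0673).

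Of 21 other genes of fatty acid oxidation tested, 12 fell and 3 rose with loess, where 28.3% of all genes fell and 33.0% rose, and their median log2 ratio was -0.25. The difference in shares was not tested. Pdk4, which shifts fuel use toward fat and is a PPAR target, was at least 1.62-fold lower, since neither array had its Chuk-deleted signal well above background (adjusted p = 0.000124, limma). Ucp2, a mitochondrial carrier, fell by 0.55 ± 0.19 and Ech1, an isomerase of oxidation, fell by 0.44 ± 0.04. The other forms of the transport enzyme went up: Cpt1c by 0.52 ± 0.06 and Cpt1b by 0.43 ± 0.005. Acaa1b, a peroxisomal thiolase, rose by 0.20 ± 0.09. With median centring 16 of these genes were higher and 2 lower, and their median lay 0.21 below that of all genes, as compared with 0.27 below it with loess.

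Genes of fatty acid uptake and activation had 2 of 12 tested higher and 5 lower (median -0.04). Slc27a4, the fatty acid transporter needed for the skin barrier in mice, fell by 0.88 ± 0.24. The ligases Acsl5 (-0.83 ± 0.28) and Acsl1 (-0.80 ± 0.03) fell. Slc27a6 and Slc27a3 rose by 0.48 ± 0.06 and 0.36 ± 0.14. Over the 6 lists together 20 of 80 tested genes rose and 37 fell, against 33.0% and 28.3% of all genes. At least 2-fold on both arrays, 1 of the 80 was higher and 5 were lower, against 1.50% and 3.21% of all genes. These lists were not tested as sets. Their counts depend on the centring: with median centring 5 carriers were higher and 2 lower, 7 and 2 of the genes around the lipase, and 8 and 1 of the uptake genes, and with the spike-in mean 0 were higher and 7, 8 and 12 lower. Of the 92 called genes on the pathway and marker lists, Rbp7 was the 1 that changed sides of the median gene with median centring.

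**Figure D5:**
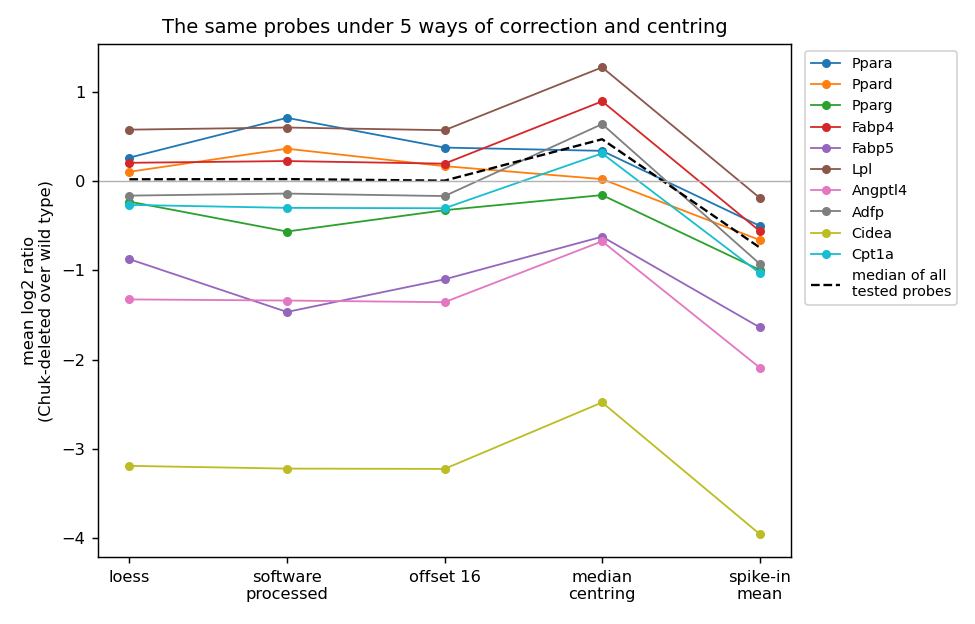
Mean log2 ratio of the brightest probe of each member under 5 ways of background correction and centring, with the median of all tested probes as a dashed line. Lpl stays above the dashed line and Cidea, Angptl4 and Fabp5 stay below it in each, while Adfp, Ppara and Ppard cross it with median centring. Distances from the dashed line with the spike-in mean equal those with loess by construction.

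Markers of cells that could bring these genes into a keratinocyte sample were read on the same arrays. All 8 keratinocyte markers were well above background in both channels on both arrays, and 5 rose and 3 fell. Itgb4, an integrin of basal cells, rose by 1.57 ± 0.39, Trp63 by 0.90 ± 0.13 and Itga6 by 0.75 ± 0.12, while Dsp, of desmosomes (-0.91 ± 0.06), Perp (-0.63 ± 0.20) and Krt15 (-0.32 ± 0.02) fell. The fat cell markers Adipoq, Cfd and Retn were not above background in either channel on either array, as held for 7 of 10 fat cell markers, and Plin1 was above it in the wild-type channel on 1 array. Of the other fat cell markers Slc2a4, a glucose transporter, rose by 2.46 ± 0.18 and Lipe, a hormone-sensitive lipase, lay at 0.14 (SD 0.001) without passing. The summed signal of that list, which Slc2a4 dominates, was 12006 and 11829 in the Chuk-deleted channel, against 2504 and 2110 in the wild-type channel. Of 7 sebocyte markers on the array, Awat2, Elovl3 and Scd3 were not above background in either channel on either array. Mc5r was above it in the Chuk-deleted channel on 1 array, and Far2 in each channel on 1 array. The 2 tested, Mogat2 (1.69 ± 0.11) and Soat1 (0.20 ± 0.02), rose. The summed signal of the list, which Soat1 dominates, was 4387 and 4537 in the Chuk-deleted channel, against 3260 and 3290 in the wild-type channel.

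Other markers moved alongside Fabp4, Lpl, Cidea and Angptl4, and their part in those results was not tested. Of 8 fibroblast markers 6 rose and 1 fell (median 0.73): Sparc rose by 1.55 ± 0.43, Thy1 by 1.11 ± 0.21 and Col1a2 by 1.02 ± 0.19, Dcn fell by 0.60 ± 0.03, and the summed signal was 140106 and 125616 in the Chuk-deleted channel, against 75101 and 55130 in the wild-type channel. Macrophages are known to express Lpl and Fabp4. Of 8 macrophage markers on the array, Itgam, Mrc1 and Ptprc were not above background in either channel on either array. Of the 5 tested, 3 fell (Adgre1 at -1.15 ± 0.17, Lyz2 at -1.02 ± 0.08 and Csf1r at -0.81 ± 0.02) and 0 rose. Cd68 (0.13 ± 0.06) and Cd14 (-0.15 ± 0.04) did not pass. The Chuk-deleted signals of Adgre1 and Csf1r were well above background on 1 of 2 arrays. The list had sums of 3185 and 2870 in the Chuk-deleted channel, against 4573 and 4165 in the wild-type channel. Of the endothelial markers 1 of 7 was tested, Kdr (0.21 ± 0.02, higher), and the sums were 1351 and 1274 in the Chuk-deleted channel, against 1179 and 1098 in the wild-type channel. All 5 melanocyte markers tested fell (median -1.43), with Mlana at -1.70 ± 0.24, Pmel at -1.49 ± 0.31 and Dct at -1.43 ± 0.05, and sums of 21488 and 16174 in the Chuk-deleted channel, against 51441 and 46206 in the wild-type channel. Genes of keratinocyte differentiation fell in 8 of 8 cases with loess, where 28.3% of all genes fell, and the difference was not tested. With median centring 7 were lower and 1 was higher. Their loess median was -1.58 on array 1 and -2.59 on array 2, and the smallest fall was that of Krt10 (-0.25, SD 0.002). Tgm1, which crosslinks the cornified envelope, lay at -2.90 ± 0.84, Lor, a main protein of that envelope, at -2.82 ± 0.89 and Krtdap at -2.45 ± 0.85.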

How the data were processed

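The deposited scanner output holds, per the file headers, the intensity of each spot in Cy5 and Cy3 with its local background, a processed intensity (background subtracted, dye normalised), the log10 ratio of processed Cy5 over Cy3, the p-value of that ratio within 1 array, and flags (score of 0 or 1), written by Agilent Feature Extraction 9.1.3.1. The deposited value table equalled the log10 ratio to within 0.005 and had a median of 0 on both arrays. Per the file headers both arrays lie on 1 slide and were scanned together.

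In R 4.3.3 with limma 3.58.1 and data.table (version 1.17.8), the mean signals were corrected by normexp (offset 50), log2 ratios were normalised by loess with control spots at weight 0, outlier spots (51 and 18) were left out and spots of a probe averaged; no spot of the 10 genes was an outlier or saturated. Probes were tested where, on each array, Cy5 or Cy3 was well above background (in 0.5 or more of the spots). lmFit and eBayes tested the mean against 0 (two-sided); Benjamini-Hochberg adjustment covered 23519 probes and the threshold was 0.05. In the main fit each probe had 1 residual and 5.16 prior degrees of freedom. The prior of the other settings is not given. With median centring and the spike-in mean, the adjusted p-values of Cidea were 2.28e-110 and 5.46e-224 (limma). Values so small mean that a probe's own spread counted for little in those fits. The number of arrays limits the precision. A gene was represented by its brightest tested probe, named through RefSeq (GRCm38.p6): 16129 tested probes by accession and 4721 by symbol or synonym. In 542 genes probes were called in opposite directions. The fit was checked on simulated data. Bounds written as at least N-fold set the bright channel against the lowest signal well above background or the dim signal, whichever was higher, and are open to dye bias.

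Members and gene lists were chosen with earlier results of these data known. The text names all members, Chuk, fat cell markers, and up to 3 list genes with the largest rise and 3 with the largest fall among those that passed, or the 2 brightest where none did; the values of some genes so named are left out. Further genes (Rxra, Rxrb, Gpihbp1, Fabp12, Lipe, Cd68, Cd14, Krt10 and those too dim to test) were named after their values were seen. Alternatives were the processed signals, an offset of 16, median centring, the spike-in mean, both filters, outliers kept, each array alone and other call rules.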

Additional observations from a re-analysis of the deposited data

How the results depend on the processing

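Of the 14 member probes, 14 kept direction and side of the threshold with an offset of 16 and with outlier spots kept, 12 with the processed signals, 13 with no filter on dim probes, and 12 of the 12 tested when both channels had to be well above background. Centring mattered most. With median centring Adfp turned to 0.64 and the first Cpt1a probe to 0.31. With the spike-in mean subtracted, the Fabp4 probes turned to -0.48, -0.56 and -0.73, the Lpl probes to -0.19 and -0.26, Ppara to -0.50 and Ppard to -0.66. The whole array moves with these settings, by 0.45 and by -0.76 in the median probe, and 91.2% and 2.13% of all calls were then higher, against 54.5% with loess. Of the 10 genes, 3 that rose became 5 with median centring, 0 with the spike-in mean, 0 at 2-fold and 0 by the software's p-value. The 6 that fell became 3 with median centring, 2 at 2-fold and 3 by the software's p-value. Of the probes, 5 that rose became 0 with the spike-in mean, and 7 that fell became 3 with median centring and 13 with the spike-in mean. Of the 6 pathway lists, 20 genes that rose became 57 and 1, and 37 that fell became 9 and 74, with median centring and the spike-in mean in that order. With 1 array left out, the members at least 2-fold apart stayed at 0 higher and 2 lower, and the list genes at 1 higher and 5 to 7 lower. No paired analysis was possible because the arrays form 1 group and each ratio already pairs the channels, and a slide block could not be fitted to 1 slide. Signals near background limit the receptor probes, the dim Fabp4 and Cpt1a probes and Fabp5.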
